A study of Mus musculus with 6 samples.

Results

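The GABA-A receptor subunit genes were examined in the hippocampus of adult mice that had received ethanol or saline as pups. The genes were Gabra2, Gabra3, Gabra4, Gabra5, Gabrb1, Gabrb2 and Gabrd, taken by name, which are 7 of the 19938 genes with a probe set of their own on the array. Where a gene had several probe sets the brightest was used. Ethanol-exposed C57BL/6J males had received 2.5 g/kg of ethanol in saline as 2 subcutaneous injections a day on postnatal days 4 and 7, and control littermates of the same strain and sex had received saline on the same schedule. All mice were 70 days old at dissection. RNA of 3 mice that were not littermates was pooled for each array, with 3 arrays per group, which makes 6 arrays from 18 mice (9 per group). Replicate error is therefore the variation among pools of different animals. The binge exposure falls in the first postnatal week, when hippocampal synapses form, and the comparison asks whether it leaves a difference in gene expression in the adult.

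The GABA-A receptor is a ring of subunits around a chloride channel that opens when GABA binds, and it carries most fast inhibition in the brain. Subunit composition sets where a receptor sits and which drugs act on it. Receptors with the alpha 2 or alpha 3 subunit lie mainly at synapses, whereas those with alpha 5, or with alpha 4 and delta, lie largely outside synapses and carry a tonic current. GABA-A receptors are among the proteins whose activity ethanol enhances. The C57BL/6J strain is known for a low Gabra2 level among inbred mouse strains, and both groups share that background.

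Genes of this family lie in clusters, and Gabra2, Gabra4 and Gabrb1 are on chromosome 5 of the mouse, with Gabra5 on chromosome 7, Gabrb2 on chromosome 11, Gabra3 on chromosome X and Gabrd on chromosome 4. RefSeq gives Gabra4 and Gabrb1 opposite strands and starts that overlap by 388 bases. The 250 bases upstream of each annotated start were read from RefSeq (GRCm38.p6) for 6 of the 7 genes, in 10 windows, since several genes have more than 1 annotated start. Those of Gabra4 and Gabrb1 are printed because these neighbours share their starts, and a window of Gabrb2 because its level was ordered like that of Gabrb1 over the arrays. Each runs 5′ to 3′ toward the start, and capitals mark a GC box (GGGCGG) or a TATA box (TATAAA) on either strand. The Gabra4 window is chr5:71658309-71658558 on the minus strand. The Gabrb1 windows are chr5:71657671-71657920 and chr5:71699682-71699931 on the plus strand. The Gabrb2 window is chr11:42420190-42420439 on the plus strand. Windows at the other annotated starts of Gabrb2 held no match to either box and are not printed.
Gabra4: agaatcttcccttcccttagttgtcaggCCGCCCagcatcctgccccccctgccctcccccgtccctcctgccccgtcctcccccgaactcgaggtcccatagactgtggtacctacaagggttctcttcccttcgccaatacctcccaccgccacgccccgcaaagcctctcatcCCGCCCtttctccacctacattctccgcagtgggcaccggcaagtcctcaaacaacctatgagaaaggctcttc
Gabrb1, first start: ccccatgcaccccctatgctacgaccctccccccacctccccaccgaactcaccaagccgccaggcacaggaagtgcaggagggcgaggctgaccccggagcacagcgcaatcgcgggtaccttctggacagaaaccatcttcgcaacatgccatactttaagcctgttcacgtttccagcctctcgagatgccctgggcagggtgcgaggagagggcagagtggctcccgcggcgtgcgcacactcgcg
Gabrb1, second start: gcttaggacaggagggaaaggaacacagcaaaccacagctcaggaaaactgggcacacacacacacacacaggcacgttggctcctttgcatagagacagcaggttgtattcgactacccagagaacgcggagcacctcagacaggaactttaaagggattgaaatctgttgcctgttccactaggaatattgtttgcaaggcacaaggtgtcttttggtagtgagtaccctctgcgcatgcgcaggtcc
Gabrb2: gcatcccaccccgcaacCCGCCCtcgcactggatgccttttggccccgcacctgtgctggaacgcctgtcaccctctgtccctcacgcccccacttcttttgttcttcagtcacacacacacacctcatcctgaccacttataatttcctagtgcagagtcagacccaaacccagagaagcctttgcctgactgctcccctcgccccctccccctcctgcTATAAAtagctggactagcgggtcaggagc

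The letters of a GC box were found in 3 of the 10 windows (Gabra2, Gabra4 and the printed one of Gabrb2), against 32.7% of 32851 upstream windows of all genes. A TATA box was found in 3 of the 10, against 12.4%. These were the printed window of Gabrb2 and both windows of Gabra3, which overlap and hold the same match. The letters of a cyclic AMP response element (TGACGTCA), an E-box (CACGTG) and an EGR site (GCGTGGGCG) were in 0 of the 10, against 1.55%, 6.02% and 0.536% of all windows. No match of 1 motif overlapped a match of another in these windows, and such matches describe the letters alone. The guanine and cytosine content was 70.0% upstream of Gabra2 and 61.2% upstream of Gabra4, against a median of 52.4% over all windows. It was 42.4% and 39.2% in the Gabra3 windows, which hold 0 CpG pairs.

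None of the 7 subunit genes passed the test for a difference between ethanol and saline. The largest difference was in Gabrd, a log2 change of 0.09 ± 0.07 (SE) or 1.07-fold, and the smallest in Gabra2, 0.0037 ± 0.045. At an unadjusted p under 0.05 in limma, 0 of 7 passed, where 5.22% of all 19938 genes did. The same was found with an unmoderated equal-variance test (0 of 7). The pools of both groups overlapped in all 7 genes, while they did not overlap in 10.4% of all genes. Of the 7 changes, 3 were above 0, and their median was -0.007, beside 0.00014 over all genes. The adjusted p over all 23410 tested probe sets lay between 0.936 (Gabrd) and 0.997 (Gabra2) in limma. No probe set of any gene passed after adjustment in limma, with 1202 (5.13%) past the unadjusted threshold, and 0 passed in the unmoderated test.

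**Figure D1:**
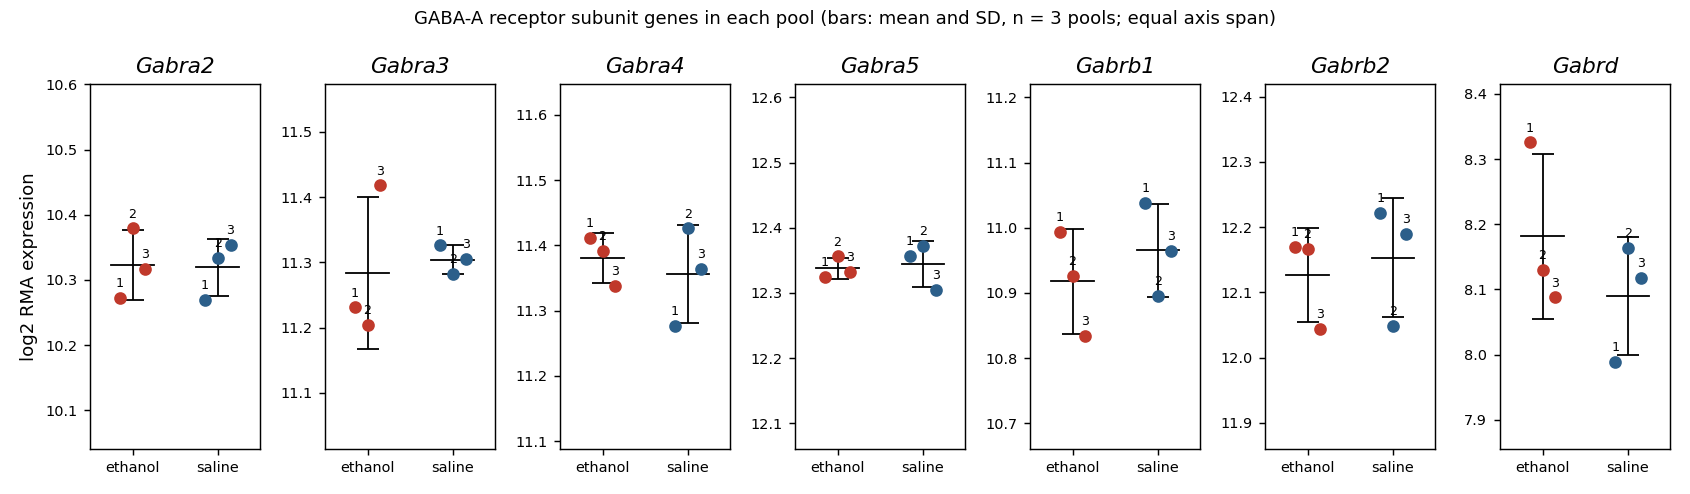
Log2 RMA expression of each subunit gene in every pool (red for ethanol, blue for saline, pool number above the point), with mean and SD over 3 pools and the same span on each axis. The groups overlap in all 7 genes, and ethanol pool 1 lies highest for Gabrd at 8.33.

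Alpha subunits form the GABA site together with beta subunits and carry most of the drug selectivity of the receptor. All values that follow are log2 RMA expression, and the brightness of different probe sets is not compared. Gabra2, the alpha 2 subunit of synapses and of the axon initial segment of pyramidal cells, was at 10.27, 10.38 and 10.32 in ethanol pools 1, 2 and 3, against 10.27, 10.33 and 10.35 in saline pools 1, 2 and 3. The lowest pool of each group was its pool 1, at the same level. Group means were 10.32 ± 0.05 after ethanol and 10.32 ± 0.04 after saline (SD, n = 3 each), and the 95% confidence interval of the change ran from 0.934 to 1.08 times the saline level.

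Gabra3 encodes the alpha 3 subunit, which is prominent in the reticular thalamus and in monoamine nuclei. It was at 11.23, 11.20 and 11.42 in the ethanol pools, against 11.33, 11.28 and 11.31 in the saline pools. The ethanol pools thus held both the highest and the lowest value, with the saline pools between them. Its SD was 0.116 between ethanol pools and 0.0224 between saline pools, the widest contrast in spread among the 7 genes, and the difference in spread was not tested. The change was -0.02 ± 0.06 (SE), with an interval from 0.898 to 1.08 times the saline level.

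Gabra4 encodes the alpha 4 subunit, a partner of delta in dentate granule cells and thalamus that makes receptors insensitive to classical benzodiazepines. Its values were 11.41, 11.39 and 11.34 after ethanol, against 11.28, 11.43 and 11.36 after saline. Both extremes were saline pools, pool 1 the lowest and pool 2 the highest. The change was 0.02 ± 0.05 (SE), with an interval from 0.941 to 1.099 times the saline level.

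Gabra5, the alpha 5 subunit of pyramidal cell dendrites, has been tied to tonic inhibition and to hippocampal learning. It stood at 12.33, 12.36 and 12.33 in the ethanol pools, against 12.36, 12.37 and 12.31 in the saline pools. No other subunit gene varied so little over the arrays, with a range of 0.0665 over 6 arrays, where the median gene above the receptor level had 0.168. The receptor level is 5.37, below which lie the means of 95% of 1190 genes for odorant and pheromone receptors, which the hippocampus is not known for, and all 7 subunit genes lay above it. The change of Gabra5 was -0.007 ± 0.039 (SE) and its interval, from 0.936 to 1.06 times the saline level, was also the narrowest.

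Beta subunits complete the GABA site and are needed for receptors to reach the surface. Gabrb1 was at 10.99, 10.93 and 10.83 after ethanol, against 11.04, 10.90 and 10.96 after saline. The lowest pool was ethanol pool 3 and the highest saline pool 1. Its change of -0.05 ± 0.06 (SE) was the lowest of the 7, and its interval ran from 0.886 to 1.06 times the saline level.

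Gabrb2, a widespread beta subunit of the adult brain and a target of the anaesthetic etomidate, was read by 3 probe sets, and the other 6 genes by 1 each. The brightest gave 12.17, 12.17 and 12.04 in the ethanol pools, against 12.22, 12.05 and 12.19 in the saline pools. Ethanol pool 3 and saline pool 2 were low and the other 4 pools were close together. The change was -0.03 ± 0.06 (SE), from 0.895 to 1.08 times the saline level. The second probe set, at a mean of 11.95, changed by -0.04 ± 0.06, and the third, at a mean of 11.58, by 0.04 ± 0.05. None of the 3 passed the unadjusted threshold, and the difference between the probe sets was not tested.

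The delta subunit, encoded by Gabrd, takes the place of a gamma subunit in receptors outside synapses that respond to low GABA and to neurosteroids. Gabrd was at 8.33, 8.13 and 8.09 in ethanol pools 1, 2 and 3, against 7.99, 8.16 and 8.12 in saline pools 1, 2 and 3. Ethanol pool 1 stood above all other pools and saline pool 1 below them, while the remaining 4 lay within the range from 8.09 to 8.16. Means were 8.18 ± 0.13 after ethanol and 8.09 ± 0.09 after saline (SD, n = 3 each). The interval of the change ran from 0.951 to 1.19 times the saline level (limma, adjusted p = 0.936). Without ethanol pool 1 the change was 0.02.

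**Figure D2:**
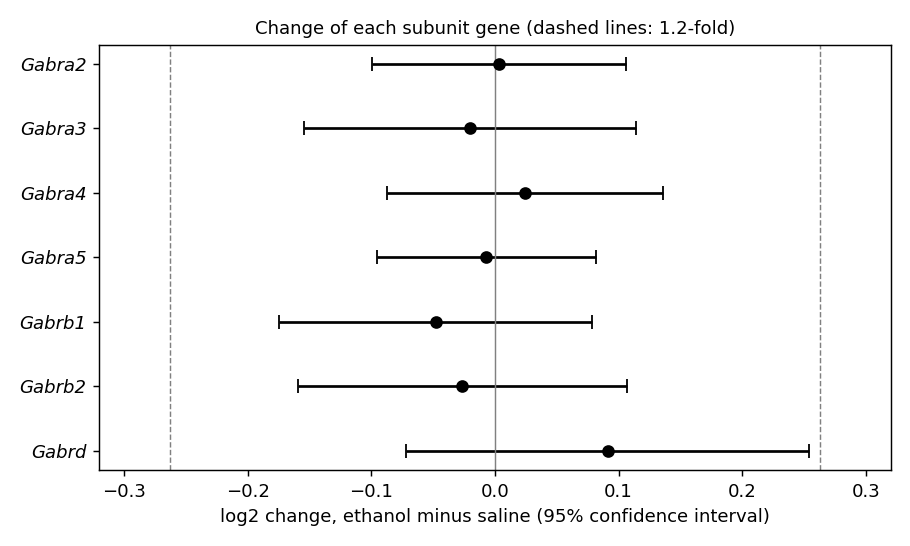
Log2 change of each subunit gene (ethanol minus saline, points) with its 95% confidence interval (bars) from limma over 6 arrays, and dashed lines at 1.2-fold in either direction. All 7 intervals include 0 and lie between 0.886 and 1.19 times the saline level.

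The intervals bound the size of a difference in array values that these pools could hide. The study reports that fold changes it reproduced by droplet digital PCR, in other genes, were greater than those on the array. The bounds are therefore not bounds on the RNA itself. All 7 lay inside 1.2-fold in either direction, the fold threshold of the study's methods. Under the alternatives, 105 of 112 intervals did so too. The other 7 were all of Gabrd, whose upper limit reached 1.27-fold in the unmoderated test. The bounds apply to the average of whole hippocampus, where fewer cells of a type and less RNA per cell cannot be told apart. RNA levels do not show how many receptors are on the surface.

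Over the 6 arrays, the levels of Gabra4 and Gabrd were ordered almost alike, as were those of Gabrb1 and Gabrb2. They are 2 of the 21 pairs of the 7 genes, singled out after their values were seen, and 5 of the 21 had a Pearson r above 0. For Gabrb1 and Gabrb2, r was 0.904 (exact permutation p = 0.0139) and Spearman's rho was 0.943 (exact permutation p = 0.0167). For Gabra4 and Gabrd, r was 0.817 (exact permutation p = 0.0333) and rho was 0.943 (exact permutation p = 0.0167). Tests were two-sided. Neither pair passed after Benjamini-Hochberg adjustment over the 21 pairs, at an exact permutation adjusted p = 0.292 and 0.35 for r and 0.175 for rho in both. With the 2 arrays farthest from the median of the first gene left out, r was 0.780 for Gabrb1 and Gabrb2 (ethanol pool 3 and saline pool 1 out) and 0.838 for Gabra4 and Gabrd (saline pools 1 and 2 out). The neighbours Gabra4 and Gabrb1, with overlapping starts, had r = -0.323 (exact permutation p = 0.522, adjusted p = 0.981) and rho = -0.257 (exact permutation p = 0.658, adjusted p = 0.992), and r was 0.816 without saline pools 1 and 2. Values of 2 genes on 1 array share its RNA and its normalization.

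**Figure D3:**
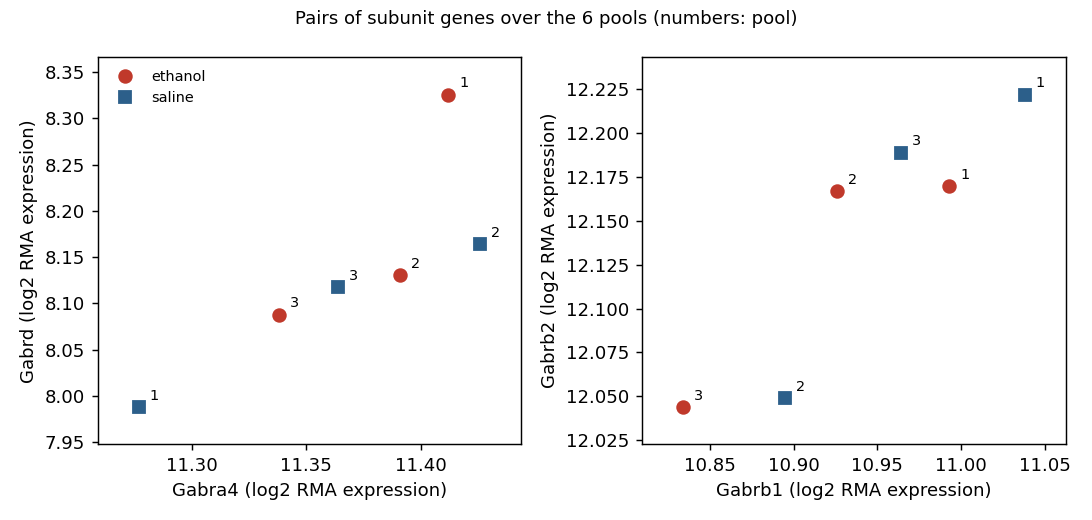
Log2 RMA expression of Gabrd against Gabra4 and of Gabrb2 against Gabrb1 in the 6 pools (red circles for ethanol, blue squares for saline, pool number beside the point). Pearson r is 0.817 in the first panel and 0.904 in the second, and each panel mixes both groups along its trend.

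Genes with the profile most like that of each subunit gene were sought among the 12433 genes above the receptor level, by Pearson r over the 6 arrays. Each is the highest of 12433 values, so no p is given. Gabrd was most like Kctd2, an adaptor of cullin ubiquitin ligases (r = 0.994, rho = 0.943), and Gabra4 was most like Nmnat1, an enzyme of NAD synthesis (r = 0.991, rho = 1). Gabrb1 was most like B4galt6, which makes lactosylceramide (r = 0.995, rho = 1), and Gabrb2 was most like the relaxin gene Rln1 (r = 0.995, rho = 1). Gabra3 was most like Taf1d, a factor of RNA polymerase I (r = 0.99, rho = 1), whose SD over the arrays was 0.252 against 0.0756 for Gabra3. Gabra2 was most like Mturn (r = 0.984, rho = 0.943) and Gabra5 most like Osbpl11, an oxysterol-binding protein relative (r = 0.989, rho = 0.943). None of these 7 genes was another subunit gene.

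Among other subunits and the proteins that handle GABA, 2 of the 63 measured genes of the 6 related lists passed the unadjusted threshold. Both were higher after ethanol. Of all genes 5.22% passed, 2.8% higher and 2.41% lower, so the count is not above that share. Both genes are named because they passed. Kctd8, an auxiliary subunit of the metabotropic GABA-B receptor, was at 6.55, 6.56 and 6.50 after ethanol, against 6.44, 6.40 and 6.35 after saline. Its pools did not overlap, and it was 0.14 ± 0.04 (SE) higher after ethanol, or 1.1-fold (limma, adjusted p = 0.931). It also passed the unadjusted threshold under the 15 alternatives that could test it, which reuse the same arrays and are not separate evidence. Gabrp, the pi subunit, which is known mainly from tissues outside the brain, was at 4.68, 4.73 and 4.75 after ethanol, against 4.61, 4.56 and 4.65 after saline. These values lie below the receptor level, and the change of 0.11 ± 0.04 (SE) had an adjusted p = 0.931 in limma.

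Of 12 other GABA-A subunit genes listed, 9 were measured and 2 lay above the receptor level. One of the 9 was higher (Gabrp) and 0 were lower, with a median change of 0.02. Above the receptor level were the gamma subunits Gabrg3, at 10.14, 10.04 and 10.03 after ethanol and 10.12, 9.89 and 9.93 after saline, and Gabrg1, at 9.02, 9.01 and 9.08 after ethanol and 9.00, 9.06 and 9.11 after saline. Their groups overlapped, with changes of 0.09 ± 0.07 (SE) for Gabrg3 and -0.02 ± 0.04 for Gabrg1. With 1 array left out, Gabrg3 lay from 0.043 (without saline pool 2) to 0.16 (without saline pool 1), and it passed the unadjusted threshold only without saline pool 1.

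Of 23 measured genes that assemble, move or anchor GABA-A receptors, 0 passed in either direction, and their median change was 0.0015. Nsf, the fusion ATPase that acts in receptor recycling, changed by -0.02 ± 0.04 (SE), and Gabarapl1, a relative of the receptor-associated protein GABARAP, by 0.03 ± 0.04. Among 8 measured genes of GABA synthesis, transport and breakdown 0 passed, with a median of 0.04. Abat, the transaminase that degrades GABA, changed by 0.02 ± 0.04 and the astrocyte GABA transporter Slc6a11 by 0.10 ± 0.05. The ethanol and saline pools of Slc6a11 did not overlap (10.83 to 11.00 after ethanol, 10.77 to 10.82 after saline), and without ethanol pool 1 its change was 0.044. Over the 6 related lists the pools did not overlap in 6 of 63 genes (9.52%), near the 10.4% of all genes. Of the 6, Gabrp, Kctd8, Slc6a11 and Wnk2 were on the higher side after ethanol, and Rdx and Mkln1 on the lower side.

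Of 6 GABA-B receptor genes and partners, 1 was higher (Kctd8) and 0 were lower, with a median of 0.03. The receptor genes themselves, Gabbr1 and Gabbr2, changed by 0.0044 ± 0.04 (SE) and 0.06 ± 0.05. Of 11 genes of chloride transport, whose gradient decides what an open GABA-A channel does, 0 passed and the median was -0.05. They include the kinases Wnk1, at -0.09 ± 0.04 (SE), and Stk39, at 0.05 ± 0.06. Wnk1 passed the unadjusted threshold with an intensity trend, with array weights and without ethanol pool 1 (-0.11). Of 6 measured genes of neurosteroid synthesis and benzodiazepine-site ligands, 0 passed and the median was 0.03, but only 2 lay above the receptor level. These were Dbi, the diazepam binding inhibitor, at 0.04 ± 0.04 and Tspo, a mitochondrial outer membrane protein, at 0.04 ± 0.06.

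**Figure D4:**
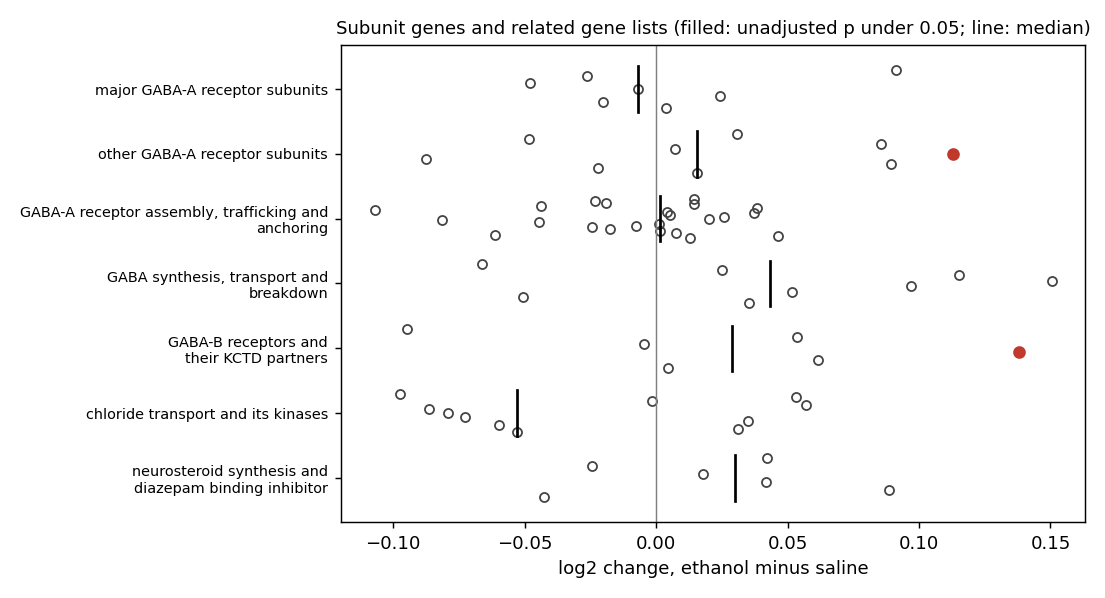
Log2 change (ethanol minus saline) of every measured gene of the subunit list and of the 6 related lists, with the median of each list as a line and filled points for an unadjusted p under 0.05 in limma. The only filled points are Gabrp and Kctd8, and the medians lie between -0.05 and 0.04.

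Cell type and region markers were set beside the subunit genes. All 7 dentate granule cell markers and all 8 measured CA1 and CA3 markers lay above the receptor level, as the tissue label asks, and 0 of either list passed, with median changes of -0.05 and -0.01. The mean of the dentate list, relative to saline, was 0.083, -0.038 and -0.149 in ethanol pools 1, 2 and 3, and -0.053, 0.056 and -0.003 in saline pools 1, 2 and 3. The 14 interneuron markers had a median of 0.0049, with 1 higher (Calb2, which the thalamus list also holds).

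Thalamus markers were higher after ethanol in 11 of 16, with 13 of 16 above the receptor level. Their mean was 0.693, 0.28 and 0.121 in the ethanol pools and from -0.011 to 0.009 in the saline pools. The list was chosen with earlier results of these data known. It includes Tcf7l2 and Synpo2, which the study reported as higher after ethanol on these arrays. The count is therefore a description and not an independent test. The ethanol pools had the order of the thalamus list, pool 1 highest and pool 3 lowest, in 4 of the 7 subunit genes. These 4 are the 2 pairs whose levels were ordered almost alike, so they are not 4 separate observations. The share of all genes with this order was not counted, and the count is a description only. Gabrd was at 0.235, 0.040 and -0.0022 from the saline mean, and Gabra4 at 0.056, 0.035 and -0.018. Gabrb1 was at 0.027, -0.039 and -0.132. Gabrb2 was at 0.017, 0.013 and -0.109, with pools 1 and 2 nearly equal. Of the 10 marker lists, those of thalamus, dentate granule cells and endothelium had this order. The dentate and endothelium lists also had the saline order of Gabrd and Gabra4 (pool 2 highest, pool 1 lowest), which the thalamus list did not. Dentate granule cells and thalamic relay neurons are known to express both genes, and the part of any of these markers in the values of Gabrd and Gabra4 was not tested. Choroid plexus markers were higher in 3 of 15, with list means of 1.058, -0.277 and 0.631 in the ethanol pools and -0.162, -0.019 and 0.181 in the saline pools. All 15 choroid plexus changes were above 0, with a median of 0.50. Myelin markers were lower in 4 of 14 (median -0.08). At the same threshold, 2.8% of all genes were higher and 2.41% lower. In the lists of astrocytes (10 genes), microglia (10), endothelium (9) and habenula (6), 0 passed, with medians of -0.02, -0.05, -0.02 and 0.06.

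**Figure D5:**
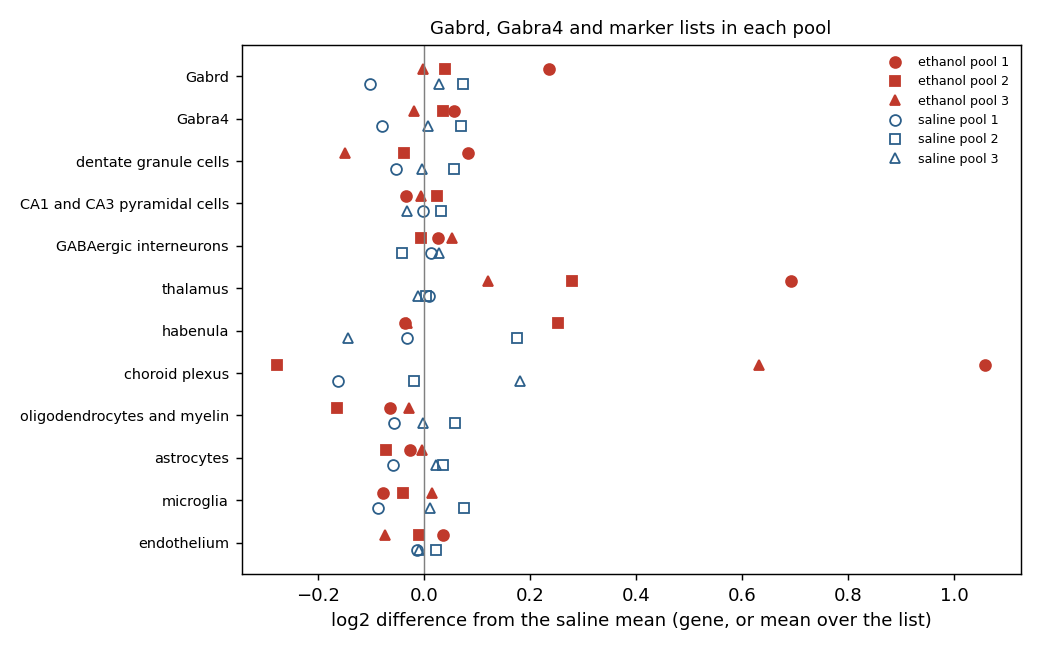
Gabrd, Gabra4 and the mean of each marker list in every pool, as the log2 difference from the saline mean (filled red for ethanol, open blue for saline, symbols for pool 1, 2 and 3). Ethanol pool 1 is highest of the 6 pools for Gabrd (0.235) and for 4 of the 10 lists, namely dentate granule cells (0.083), thalamus (0.693), choroid plexus (1.058) and endothelium (0.036).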

How the data were processed

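Hippocampal RNA was hybridized to Affymetrix Mouse Gene 1.0 ST arrays, with 3 pools of ethanol-exposed and 3 of saline-injected mice. The authors used RMA to background-correct, normalize and combine probes for each gene, and the deposited values are log2 expression (3.51 to 13.9). Which RMA software was used, and which genome build underlies the array annotation, is not given in the sources used here. Nothing was renormalized, and array medians lay from 5.84 to 5.89. Precision is limited by the number of arrays.

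Gene names came from GEO's platform table. Gene identifiers of 99.6% of the probe sets with 1 symbol were in RefSeq, where 0 symbols differed. A linear model (limma 3.58.1, lmFit and eBayes, run under R 4.3.3) was fitted to the 23410 probe sets with a symbol, two-sided and without a covariate, since the methods name an ANOVA of the groups, with Benjamini-Hochberg adjustment. The unadjusted and adjusted thresholds are both a p under 0.05. Pairs of subunit genes were compared with exact permutation tests in scipy 1.17.1, and figures drawn with matplotlib 3.10.9. The fit was tested on simulated data. Named genes are the 7 subunit genes and, in each related list, up to 4 members past the unadjusted threshold or the 2 brightest where fewer than 2 passed, with the most similar gene of each subunit gene. Calb2, Wnk2, Rdx and Mkln1 were named after their values were seen, and Tcf7l2 and Synpo2 because the study reported them. Members and lists were chosen with earlier results of these data known. Listed genes without a probe set of their own were not analysed here. The alternatives were an unmoderated equal-variance test (the methods' ANOVA, for 2 groups), pairing by replicate number, centring on array medians, quantile normalization, 2 filters on dim probe sets, all probe sets or those with 1 symbol, an intensity trend, array weights, averaging the probe sets of a gene, and each array left out.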

Additional observations from a re-analysis of the deposited data

How the results depend on the processing

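No subunit gene passed the unadjusted threshold under any of the 16 alternatives run for each gene (17 for Gabrb2), and 0 probe sets passed after adjustment under any of them. Signs of the small changes turned in some. Gabra2 was at -0.012 with median centring and at -0.011 with array weights, and from -0.024 to 0.029 with 1 array left out. Gabra5 was at 0.0094 with array weights and from -0.027 to 0.0065 with 1 array left out. With 1 array left out, Gabra3 lay from -0.087 to 0.020, Gabra4 from -0.015 to 0.060, Gabrb1 from -0.085 to -0.0059, Gabrb2 from -0.079 to 0.015 and Gabrd from 0.019 to 0.138. Gabrg1 turned to 0.0047 without saline pool 3 (lowest -0.049) and Nsf to 0.0034 without ethanol pool 3 (lowest -0.034). Gabbr1 was at -0.011 with median centring, -0.0036 with array weights and from -0.011 to 0.023 with 1 array left out. Gabrp did not pass with median centring (0.10) or without ethanol pool 2 (0.11), ethanol pool 3 (0.10) or saline pool 2 (0.09). The cause of these turns was not tested. Of the 23410 probe sets, 1202 passed the unadjusted threshold, and 834 to 1484 with 1 array left out. Counts were 494 above the median level, 662 above the receptor level and 1969 over all probe sets, since fewer or more were tested. In the 6 related lists 2 genes passed, 1 with median centring, 0 above the median level, 1 above the receptor level, 4 with an intensity trend, 5 with array weights and 2 to 5 with 1 array left out (5 without ethanol pool 1 or saline pool 1). The replicate block, in which pools of the same number are paired, left 0 subunit genes past the threshold. Deviations of same-numbered pools from their group means correlated at -0.049, -0.022 and 0.059. With 3 pools per group, these values cannot show whether same-numbered pools shared litters. The study divided littermates between the groups, so litters may be shared across them. Neither the study nor the labels state which expression pools shared litters, so the main fit was unpaired.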
